A study of Mus musculus with 54 samples.

Results

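The 7 genes described here belong to the renin-angiotensin system: Ren1, Akr1b7, Agt, Ace, Agtr1a, Enpep and Mme. They were taken by name from the 33126 genes listed in the mouse kidney files and followed across cell types, strains, bulk RNA, dissociated cells and isolated nuclei. The study held 54 samples in 18 groups of 3 biological replicates, with a kidney of a different mouse for each replicate of a group. Aliquots of 1 cell suspension served fresh, stored and bulk samples, so groups within an experiment could share mice. C57BL/6J males were 19-week-old littermates whose genotype label, AFAPIL.1DEL, was shared by all C57BL/6J groups. Their kidneys were dissociated either on ice with a protease from Bacillus licheniformis (cold) or with an enzyme kit at body temperature (warm), and the cells were loaded fresh, after cryopreservation or after methanol fixation on 10x Chromium version 2 chemistry, with bulk RNA-seq of the same kinds of suspension after removal of ribosomal RNA. Balb/c males were untreated 18-week-old littermates that gave cold-dissociated fresh cells, nuclei (both version 2) and bulk RNA of intact kidney with removal of ribosomal RNA. Balb/c females were 15-week-old wild-type ex-breeders that gave cold-dissociated cells, fresh and cryopreserved, 3 preparations of nuclei (version 3), and poly(A) bulk RNA of intact kidney and of the cold suspension. Nuclei came from frozen whole kidney. Male nuclei were sorted after 3 washes at 500 g (3x500g), and female nuclei were sorted after the same washes or after 1 spin at 2000 g (1x2000g), or passed through sucrose. The 3 experiments were run as separate batches. Between C57BL/6J and Balb/c males, strain, genotype label, age and batch cannot be told apart, and between Balb/c males and females, sex, age, breeding history, chemistry, bulk kit and batch cannot be told apart.

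Renin, the product of Ren1, is a protease stored in juxtaglomerular cells, modified smooth muscle cells of the wall of the afferent arteriole. It cuts angiotensinogen, the product of Agt, to angiotensin I, which angiotensin-converting enzyme (Ace) turns into angiotensin II, the peptide that acts on the type 1 receptor (Agtr1a). Aminopeptidase A (Enpep) and neprilysin (Mme) are membrane peptidases that trim or degrade angiotensins, and Akr1b7, an aldo-keto reductase, is a known companion of renin in juxtaglomerular cells.

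The 39 10x libraries held 175959 barcodes (77656 from cells and 98303 from nuclei), and each library had 983522 to 35170947 unique molecular identifiers (UMIs, the counted molecules). Bulk libraries ranged from 2326998 to 31093949 counted reads. Libraries of a pair shared at most 2.046% of their barcodes. The authors kept genes seen in at least 10 cells, and genes at 0 over a whole library fill the merged tables. The deposited barcodes do not follow that limit exactly, since a library listed 0 to 852 genes in 1 to 9 barcodes, among them Ren1 and Akr1b7 in some male Balb/c cell libraries. The authors counted exonic reads for cells and both intronic and exonic reads for nuclei, so a difference between nuclei and cells also holds this difference in counting, and the 2 cannot be told apart. A member listed at 0 over a whole library was taken as dropped, not as absent, and its level got no test in a comparison that held that library. The exception, a share of barcodes in warm fresh cells, is given below with such a library at 0, with 9 barcodes and left out. Agt was listed for the C57BL/6J 10x libraries and was not analysed in those of Balb/c mice. All levels are CPM, counts scaled to a total of 1000000, taken from UMIs of nuclear-encoded genes in 10x libraries and from counted reads in bulk libraries. Barcodes were clustered without the 7 genes, and clusters were named after marker lists, so that "mural-like" means a cluster led by markers of smooth muscle and pericytes. Most of the kidney's defining cell types were present by their markers. The female cells held no cluster named after the S3 segment of the proximal tubule, the male Balb/c cells none named after the connecting tubule and the male nuclei none named after the thin limb, and no fibroblast-like cluster was found among fresh cells.

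Ren1 lies on the plus strand at chr1:133350510-133360325 and Akr1b7 on the plus strand at chr6:34412334-34423142 (GRCm38). Their start-site windows are shown because these 2 genes shared a cell type below. Each window runs from 250 bases before to 50 bases after the RefSeq start (GRCm38.p6), which lies inside the GENCODE gene, and capitals mark TATAAA, the letters of a TATA box, searched on both strands.

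Ren1, chr1:133350424-133350723, plus strand: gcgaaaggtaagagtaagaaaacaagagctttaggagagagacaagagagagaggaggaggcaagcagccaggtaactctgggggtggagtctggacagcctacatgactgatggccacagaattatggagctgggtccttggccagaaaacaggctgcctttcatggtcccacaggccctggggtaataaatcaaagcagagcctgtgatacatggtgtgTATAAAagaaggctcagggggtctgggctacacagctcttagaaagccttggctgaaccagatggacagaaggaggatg

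Akr1b7, chr6:34412112-34412411, plus strand: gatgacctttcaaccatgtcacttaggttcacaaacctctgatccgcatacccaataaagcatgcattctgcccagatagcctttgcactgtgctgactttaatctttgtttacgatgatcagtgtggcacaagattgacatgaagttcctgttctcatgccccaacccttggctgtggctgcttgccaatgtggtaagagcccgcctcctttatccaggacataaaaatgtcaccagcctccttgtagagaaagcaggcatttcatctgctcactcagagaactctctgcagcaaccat

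In Ren1 the first base of TATAAA lay at position -29 from the start, and the Akr1b7 window held no match. Of the 7 genes, 6 had a window in RefSeq. TATAAA was found at -30 in Agt and, on the strand opposite the gene, at -31 in the upstream window of Ace and at -52 and -1 in Enpep, and the windows of Mme held none. Over all 32851 windows, 13.62% held TATAAA at any place and 2.5% held it starting 40 to 20 bases before the start. These matches describe letters in a window and were not tested as sites.

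The genes were highest in different cell types, with Ren1, Akr1b7 and Agtr1a sharing one. In cold fresh C57BL/6J cells, Ren1 and Akr1b7 were highest in mural-like barcodes, Enpep in podocyte-like barcodes, Mme in intercalated-like barcodes of the collecting duct, Ace in monocyte-like barcodes and then in the S3-like proximal tubule, Agtr1a in mural-like barcodes and Agt in thin-limb-like barcodes. The same class ranked highest for Ren1, Akr1b7, Ace, Agtr1a, Enpep and Mme in the cold fresh cells of Balb/c males and females. Nuclei kept that class for Ren1 and Enpep, and for Akr1b7 in females, where it was listed. In nuclei the highest class differed from that of the cells for Ace (S3-like tubule), for Agtr1a in males (fibroblast-like) and for Mme in females (S3-like tubule). The sets did not hold the same classes. No nuclei set held a monocyte-like class, the highest for Ace in cells. Cells held no fibroblast-like class, and female cells no S3-like class.

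**Figure D1:**
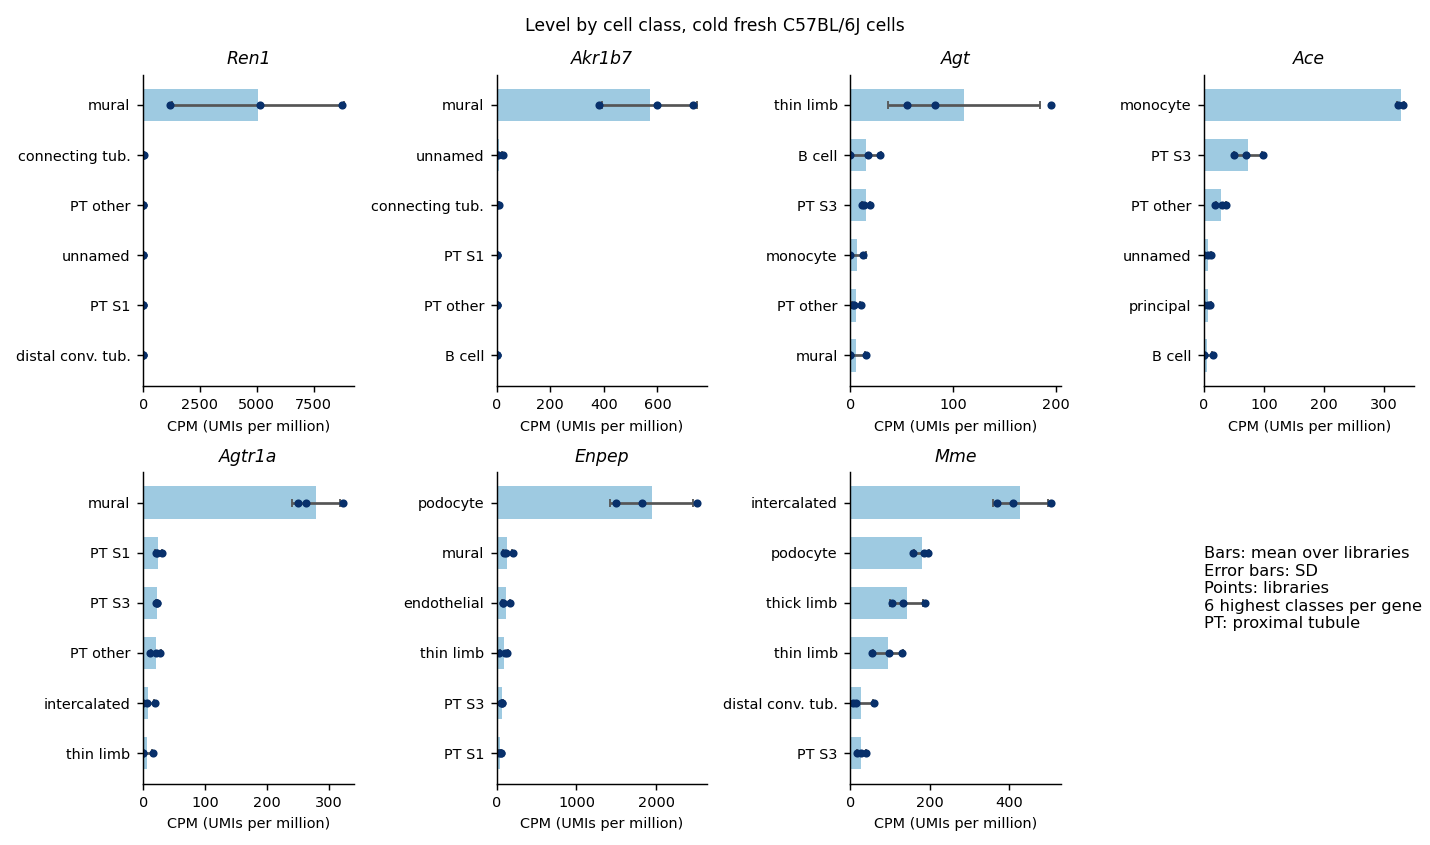
CPM of each of the 7 genes in cold fresh C57BL/6J cells, with 1 panel per gene and the 6 classes of highest mean level in each; bars are means over libraries, error bars SD and points single libraries, on linear axes from 0. Ren1 and Akr1b7 stand out in the mural-like class and Enpep in the podocyte-like class, while Ace and Mme have several classes of high level.

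Ren1 transcripts sat in few barcodes. In cold fresh C57BL/6J cells, mural-like barcodes held 1200, 8757 and 5143 CPM of Ren1 in the 3 libraries (145 barcodes in all), and the next class had a mean of 12.2 ± 21.2 (SD, n = 3). They carried 95.25% of all Ren1 UMIs of the group. In female cold fresh cells the mural-like level was 5585, 6014 and 5074 CPM (265 barcodes, 93.44% of Ren1 UMIs). In male Balb/c cells it was 0.0, 696.8 and 786 from 65 barcodes and 16 UMIs. The C57BL/6J libraries differed from each other by more than the female ones did, and the male Balb/c values rested on few molecules.

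Akr1b7 was also concentrated in mural-like barcodes. Its mural-like level in cold fresh C57BL/6J cells was 599.9, 731 and 380 CPM (95.17% of Akr1b7 UMIs), and in female cells 861, 745 and 792 (97.67%). The next class stayed below 10 CPM on average in both groups. In male Balb/c cells Akr1b7 had 4 mural-like UMIs in the 2 libraries that listed it.

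**Figure D2:**
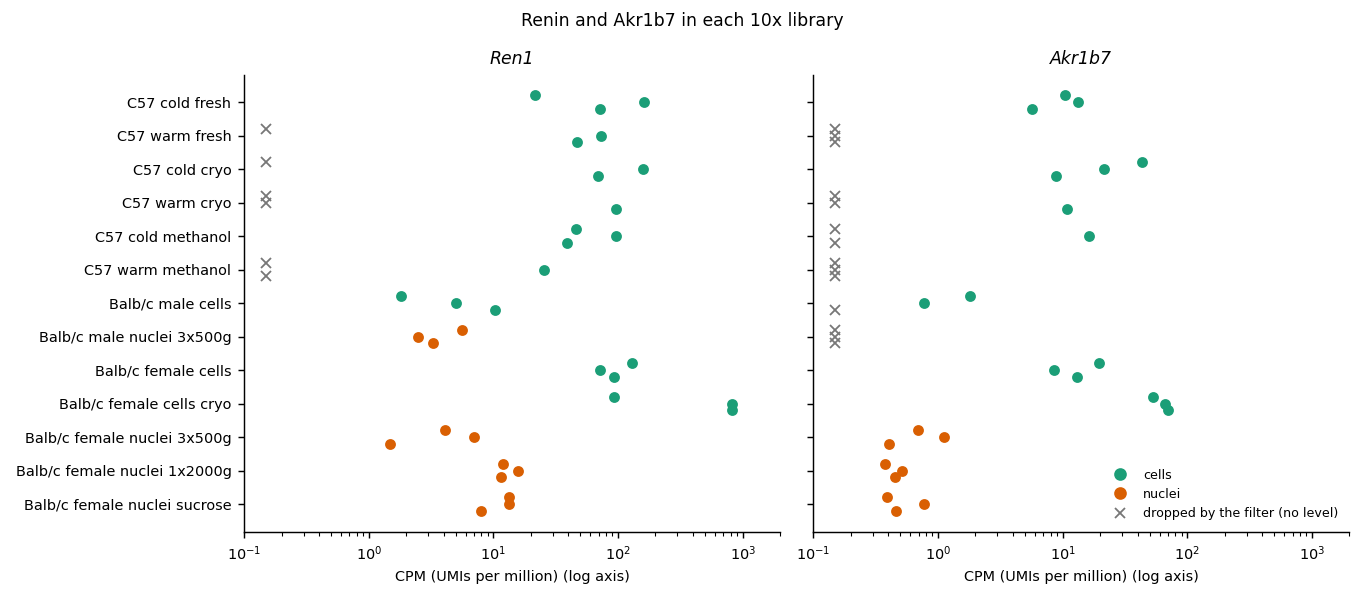
CPM of Ren1 and Akr1b7 in each 10x library on a log axis, by group, with 1 point per library in green for cells and orange for nuclei; grey crosses mark libraries in which the gene was dropped and stand for no level. The highest Ren1 points, at 826 and 819 CPM, are 2 female cryopreserved libraries, and all female nuclei lie below all female cells for both genes.

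A barcode was called renin-rich at 5 or more Ren1 UMIs, and 257 barcodes of the series passed. Of these, 246 (95.72%) were mural-like, with a median of 19 Ren1 UMIs and a highest count of 719, and in 1 barcode Ren1 made up 21.83% of the UMIs. Akr1b7 was seen in 160 of the 257, Agtr1a in 111, the pericyte gene Rgs5 in 202 and the smooth muscle genes Acta2 and Myh11 in 170 and 163. The endothelial gene Pecam1 was seen in 4 and the proximal tubule gene Lrp2 in 27, and 21 were marked as doublets. These totals mix cells and nuclei, which differed. Of 60 renin-rich barcodes in female cold fresh cells, Acta2 was seen in 51, Rgs5 in 56, Akr1b7 in 48, Agtr1a in 15 and Lrp2 in 4. Of 15 in female 3x500g nuclei, these were seen in 1, 5, 8, 10 and 5. Barcodes of libraries where a gene was dropped were counted as lacking it. In the 19 cell libraries that held any, renin-rich barcodes carried 53.85% to 99.05% of the library's Ren1 UMIs (median 90.82%), and in 11 nuclei libraries 28.0% to 70.96% (median 49.73%). The remaining Ren1 UMIs were scattered at 1 to 4 per barcode. At least 1 Ren1 UMI was seen in 31.03% of 145 mural-like barcodes of cold fresh C57BL/6J cells against 0.14% of 1428 immune barcodes, which should lack renin, at median depths of 1850 and 1303 UMIs. In female cells these shares were 33.21% of 265 and 0.51% of 780 (3536 and 1923 UMIs).

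Renin-rich barcodes made up 0.1273%, 0.2204% and 0.2587% of the cold fresh C57BL/6J libraries (3, 9 and 14 barcodes). In the warm fresh libraries with Ren1 listed, the shares were 0.0837% and 0.0696% (5 and 2 barcodes). In warm library 1 Ren1 was dropped, which could hide up to 9 barcodes or 0.3731%. With that library at 0 the mean share was 0.0511% ± 0.0448 in warm against 0.2021% ± 0.0676 in cold cells (difference -0.151 percentage points, exact two-sided permutation p = 0.1, the smallest that 3 against 3 allows). With 9 barcodes in that library the warm mean was 0.1755% ± 0.1713 and the difference -0.0267 points (exact permutation p = 0.8). Without it the difference was -0.1255 points (exact permutation p = 0.2, the smallest that 2 against 3 allows). The dropped library thus decided whether the groups separated. In female kidneys the shares were 0.304%, 0.3027% and 0.4985% of cells against 0.0578%, 0.1049% and 0.0287% of 3x500g nuclei (difference -0.3046 points, exact permutation p = 0.1). All 3 cell libraries lay above all 3 nuclei libraries. Male Balb/c cells had 1 renin-rich barcode in 3 libraries and male nuclei 2. The male shares were 0.0%, 0.0322% and 0.0% in cells, where 3 barcodes, the limit set for a count of 0, are 0.122% and 0.0839% and the exact 95% upper bounds are 0.1494% and 0.1031%, and 0.0116%, 0.0% and 0.0131% in nuclei (exact permutation p = 1.0). Exact 95% binomial intervals of single libraries were wide, from 0.0263% to 0.3717% for the first C57BL/6J cold library, and they cover counting error only.

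**Figure D3:**
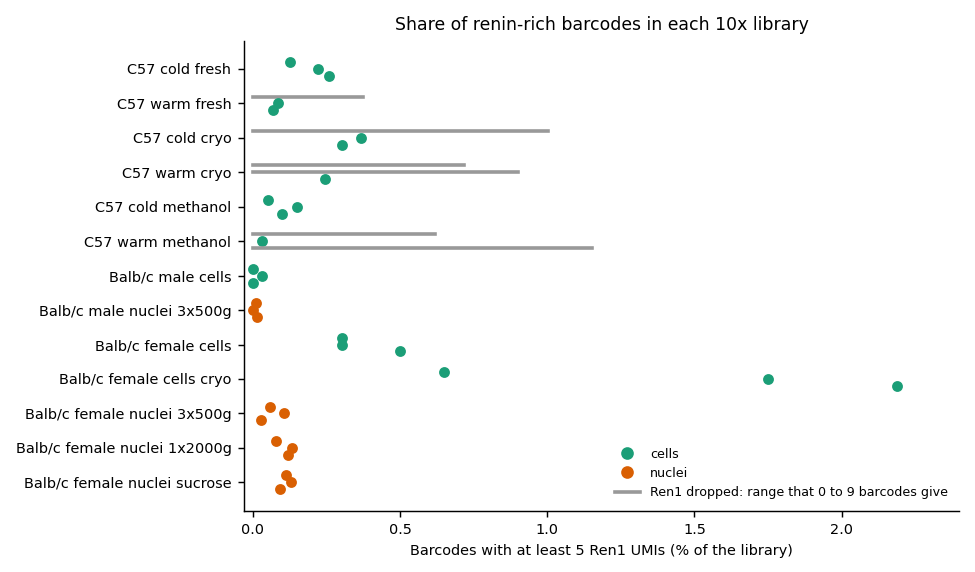
Percentage of barcodes with at least 5 Ren1 UMIs in each 10x library, by group, with 1 point per library in green for cells and orange for nuclei; grey lines span the share that 0 to 9 barcodes would give in a library where Ren1 was dropped. Cryopreserved female libraries reach 0.6481% to 2.1886%, female nuclei stay at or below 0.1336%, and male Balb/c libraries are at or near 0.

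Female cryopreserved cells held more Ren1 and Akr1b7 than fresh ones. Ren1 was at 92.6, 826 and 819 CPM after cryopreservation against 128, 71.4 and 92.9 in fresh cells, so the first cryopreserved library overlapped the fresh ones. Ren1 rose by 2.16 on the log2 scale (SE 0.64, adjusted p = 0.01852, edgeR's quasi-likelihood test with Benjamini-Hochberg adjustment). Over 10 alternatives the adjusted p ran from 0.000116 to 0.0646, and the call was lost without cryopreserved library 2 (adjusted p = 0.0578) or 3 (0.0646) or fresh library 2 (0.0597). Akr1b7 was at 52.8, 66.1 and 69.6 against 19.6, 8.54 and 13.05 CPM with no overlap, and rose by 1.81 (SE 0.25, adjusted p = 0.0003627, called in all 10 alternatives). These were 2 of the 6 members tested, in a comparison where 58.0% of 11947 genes were called. The 10 mural markers moved the same way: all 10 were higher (median 1.67), their summed level was 2350 to 3690 against 545 to 1070 CPM, and mural-like barcodes were 9.527%, 6.092% and 7.912% of the libraries against 2.475%, 1.173% and 1.314%. Their part in the result was not tested. In cold C57BL/6J cells Akr1b7 was at 43.6, 21.4 and 8.81 after cryopreservation and 10.4, 13.3 and 5.66 CPM before (log2 difference 1.12, adjusted p = 0.096, range over alternatives 0.0226 to 0.403), and Ren1 was dropped in 1 cryopreserved library.

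Few renin-rich barcodes were available to compare between warm and cold cells. Ren1 was at 21.7, 163 and 71.3 CPM in cold fresh C57BL/6J libraries and at 72.9 and 46.9 in the 2 warm libraries that listed it, a range inside the cold one. Akr1b7 was at 10.4, 13.3 and 5.66 in the cold libraries and dropped in all 3 warm ones. Within mural-like barcodes Ren1 was at 21898 and 9694 CPM in the warm libraries (25 barcodes) against 1200, 8757 and 5143 in the cold ones, a log2 difference of 1.73 (SE 0.62) that did not pass the test (adjusted p = 0.2742, range over alternatives 0.00485 to 0.996). In this class 2.41% of 1163 genes were called, and neither of the 2 members tested was. In endothelial-like barcodes, where 1.83% of 3926 genes were called, the 1 member tested, Enpep, was not called (-0.23, adjusted p = 0.8284). Single barcodes gave much of these Ren1 UMIs: 212 of 226 in warm library 3, 394 of 760 in warm library 2, 54 of 85 in cold library 1 and 644 of 906 in cold library 2. Mural markers summed to 79.2 to 159 CPM in warm and 384 to 682 in cold libraries, with Myh11 and Notch3 dropped by the filter in all warm libraries and counted as 0 in these sums, and their part in these values was not tested.

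In bulk RNA of the same kinds of suspension, Ren1 was at 25.0, 29.5 and 41.3 CPM in cold and 20.2, 41.1 and 31.7 CPM in warm suspensions, ranges that overlapped (log2 difference -0.07, adjusted p = 0.912). Akr1b7 was at 3.79, 2.85 and 2.38 CPM in cold and 1.56, 1.59 and 1.47 CPM in warm suspensions, with every warm value below every cold one. It fell by 1.00 on the log2 scale (SE 0.29, adjusted p = 0.04994, edgeR's quasi-likelihood test), which sat at the threshold: over 11 alternatives the adjusted p ran from 0.031 to 0.23, and the call was lost without any 1 of the 6 libraries and in DESeq2 (0.2302). In bulk, fewer cells of a type and less RNA per cell cannot be told apart. Of the 10 mural markers, 6 were lower and 1 higher (median -0.77), and they summed to 287 to 315 CPM in warm against 373 to 533 CPM in cold suspensions. Their part in the Akr1b7 difference was not tested.

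Bulk RNA also set intact female kidney beside the cold suspension. Ren1 was at 53.2, 89.6 and 119 CPM in intact kidney and 34.1, 43.9 and 53.4 CPM in the suspension, ranges that overlapped slightly. Ren1 was higher in intact kidney by 1.00 on the log2 scale (SE 0.25, adjusted p = 0.01981, range over alternatives 0.000627 to 0.0764), and the call was lost without intact library 2 or without suspension library 1 or 2. Akr1b7 went the other way without passing the test, at 1.90, 2.24 and 2.65 CPM intact and 3.59, 2.78 and 2.83 CPM in suspension (log2 difference -0.43, adjusted p = 0.132). The mural markers also differed between their members, with 2 higher and 6 lower in intact kidney of 10 (median -0.56; 220 to 262 CPM against 350 to 469 CPM). Intact male Balb/c kidney had 31.0, 33.5 and 35.8 CPM of Ren1 and 1.65, 4.30 and 1.23 CPM of Akr1b7.

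**Figure D4:**
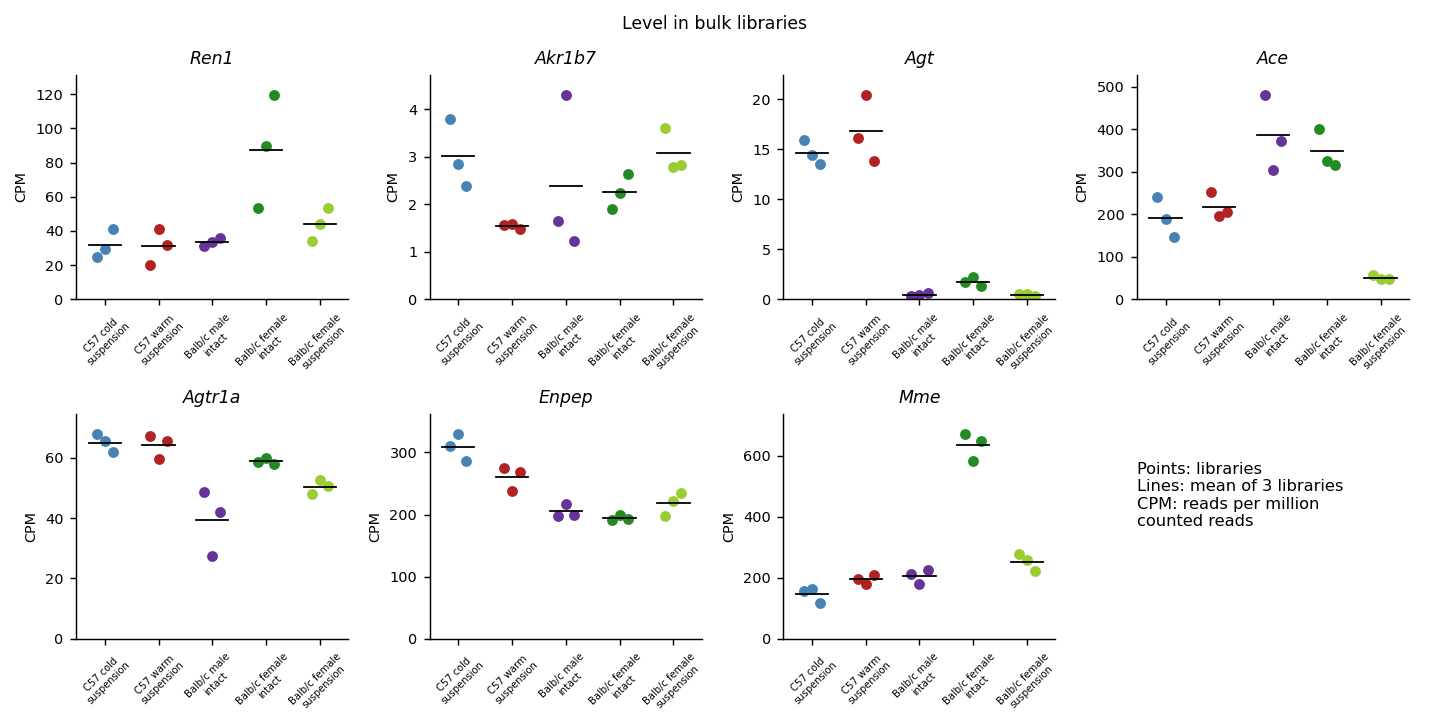
CPM of each of the 7 genes in the 15 bulk libraries, with 1 panel per gene and axes starting at 0; points are libraries, lines are means of 3 libraries, and the groups are C57BL/6J cold and warm suspensions, intact male Balb/c kidney, and intact kidney and cold suspension of Balb/c females. Ace in the female suspension lies at 47.8 to 56.2 CPM against 316 to 401 CPM in intact female kidney, and Agt is near 0 in all Balb/c libraries.

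Nuclei of female kidneys held far less Ren1 and Akr1b7 than cells. Ren1 was at 4.11, 7.04 and 1.47 CPM in 3x500g nuclei against 128, 71.4 and 92.9 in cells (log2 difference -4.96, SE 0.42, adjusted p = 5.395e-06). Akr1b7 was at 0.691, 1.12 and 0.404 against 19.6, 8.54 and 13.05 (log2 difference -4.61, SE 0.38, adjusted p = 4.052e-06). All 6 members tested were called here, 3 higher and 3 lower, in a comparison where 84.8% of 13762 genes were called. The mural markers that fell were 5 of 9 tested and 3 rose, and their sum was 81.4 to 106 CPM in nuclei against 545 to 1070 in cells. Both genes were also lower within mural-like barcodes: Ren1 was at 372, 1104 and 268 CPM in nuclei and 5585, 6014 and 5074 in cells (log2 difference -3.76, SE 0.30, adjusted p = 1.752e-10), and Akr1b7 at 119, 141 and 57.5 against 861, 745 and 792 (-3.41, SE 0.24, adjusted p = 2.651e-11). In that class 83.0% of 3976 genes were called, with 4 of 4 members tested among them.

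Ren1 differed between the nuclei preparations of female kidneys. Ren1 was at 11.9, 15.7 and 11.6 CPM in 1x2000g nuclei and at 13.3, 13.5 and 8.03 in sucrose nuclei, all above the 3 values of 3x500g nuclei. Against these same 3x500g libraries, which both comparisons share, Ren1 was higher by 1.62 in 1x2000g nuclei (SE 0.42, adjusted p = 0.02244, range over alternatives 0.00134 to 0.0703) and by 1.46 in sucrose nuclei (SE 0.43, adjusted p = 0.02637, range 0.00439 to 0.0873). The first call was lost without any 1 of the 1x2000g libraries or without 3x500g library 1, and the second without sucrose library 1 or 2 or 3x500g library 1. In each comparison 2 of 6 members were called, against 34.9% of 17449 genes and 45.3% of 17304 genes. Mural markers summed to 108 to 125 and 130 to 152 CPM in these preparations, with 3 and 4 of 9 tested called higher, and their part in the Ren1 difference was not tested. Akr1b7 was at 0.373, 0.513 and 0.455 in 1x2000g nuclei and 0.390, 0.768 and 0.459 in sucrose nuclei, and did not pass the test in either.

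Male Balb/c libraries were low in Ren1 in both kinds of library. The values were 1.82, 5.05 and 10.3 CPM in cells (3, 13 and 14 UMIs) and 5.64, 2.48 and 3.28 in nuclei (53, 19 and 25 UMIs), with a log2 difference of -0.68 for nuclei against cells (adjusted p = 0.2815). Cold fresh C57BL/6J cells exceeded the male Balb/c cells by 4.15 on the log2 scale (SE 0.86, adjusted p = 0.01903, range over alternatives 3.19e-06 to 0.0639), a call lost without C57BL/6J library 3 or Balb/c library 1 or 2. Within mural-like barcodes the difference was 3.45 (SE 0.64, adjusted p = 0.0005901) and was called in all 12 alternatives. In these comparisons 14.2% of 11225 genes and, in the mural-like class, 13.5% of 620 genes were called. Mural markers summed to 384 to 682 CPM in C57BL/6J and 73.0 to 97.3 in Balb/c libraries (5 of 8 tested higher, median 2.99). Bulk Ren1 did not separate in this way: intact male Balb/c kidney had 31.0 to 35.8 CPM and C57BL/6J suspensions 20.2 to 41.3 CPM, values from different library batches that are given side by side with no test.

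Agt, the precursor of all angiotensins, lies on the minus strand at chr8:124556534-124569706. In cold fresh C57BL/6J cells it was at 6.37, 5.40 and 6.41 CPM (25, 30 and 34 UMIs), and in warm fresh cells at 12.6, 15.3 and 10.2 (53, 160 and 49 UMIs), with every warm library above every cold one. Agt rose in warm libraries by 1.25 on the log2 scale (SE 0.21, adjusted p = 0.007209) and was called in all 11 alternatives. It was 1 of 3 members called of 5 tested, where 14.9% of 12061 genes were called. S3-like tubule barcodes carried 43.82% of the Agt UMIs in cold and 67.18% in warm cells, at 11.8, 13.6 and 19.3 against 20.9, 29.8 and 22.7 CPM. Over all proximal-tubule-like barcodes Agt was higher in warm cells by 1.14 (SE 0.27, adjusted p = 0.0321, range over alternatives 0.0272 to 0.141), a call lost without any 1 library other than cold library 1, and it was the only member called of 5 tested, against 6.74% of 9833 genes. S3-like barcodes were 11.366% of cold and 20.139% of warm barcodes, and S3 markers summed to 502 to 705 and 767 to 837 CPM. Their part in the Agt difference was not tested. The highest level was in thin-limb-like barcodes, 111 ± 74.3 CPM in cold cells (SD, n = 3), from 14 UMIs in 79 barcodes.

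Agt in bulk did not repeat the difference between warm and cold cells as a call. It was at 15.9, 14.4 and 13.5 CPM in cold and 16.1, 20.4 and 13.8 CPM in warm suspensions (log2 difference 0.16, adjusted p = 0.584). Balb/c bulk libraries held very little: 0.38, 0.43 and 0.61 CPM in intact male kidney (3, 1 and 3 reads) and 1.70, 2.24 and 1.37 CPM in intact female kidney (40 to 67 reads). The female suspension had 0.50, 0.53 and 0.38 CPM (9 to 14 reads), and intact kidney exceeded it by 1.91 on the log2 scale (SE 0.28, adjusted p = 0.001175). C57BL/6J libraries lay above all Balb/c libraries, across experiments that differed in strain, genotype, sex, age and library kit, with no test. After methanol fixation Agt was at 5.68, 4.20 and 5.88 CPM in cold and 4.79, 15.0 and 11.1 in warm cells, neither called against fresh cells, and it was dropped in all 6 cryopreserved libraries.

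Ace, the enzyme that makes angiotensin II, lies on the plus strand at chr11:105967945-105989964. It was highest in monocyte-like barcodes of cells, at 328 ± 5.65 CPM in cold fresh C57BL/6J cells (2 libraries), 340 ± 152 in male Balb/c (n = 3) and 237 ± 40.0 in female cells (2 libraries). Most Ace UMIs came from the tubule: S3-like barcodes of cold C57BL/6J cells were at 97.6, 70.9 and 50.5 CPM and carried 64.78% of them. Male Balb/c S3-like cells were at 100.0, 116 and 96.5. Female cells held no S3-like cluster, and the other proximal-tubule-like barcodes there were at 20.2 ± 2.14 and carried 66.78% of Ace UMIs. In female nuclei an S3-like class was present, at 52.3, 81.3 and 85.2 CPM with 82.68% of Ace UMIs.

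Ace showed its largest bulk difference between intact female kidney and the cold suspension. It was at 401, 326 and 316 CPM in intact kidney against 56.2, 47.8 and 47.8 CPM in the suspension, with no overlap, higher by 2.80 on the log2 scale (SE 0.11, adjusted p = 3.579e-07). It was 1 of 5 members called of 7 tested, all 5 higher in intact kidney, where 20% of 16538 genes were called and 12.1% were called higher. S3 markers moved alongside, with 6 of 10 higher (median 2.26) and sums of 1670 to 1840 CPM in intact kidney against 303 to 349 CPM in suspension, while 6 of 8 S1 markers were lower (median -0.53). Their part in the Ace difference was not tested. In 10x libraries Ace was at 5.84, 6.40 and 8.06 CPM in female cells and 9.97, 14.8 and 12.9 in 3x500g nuclei (log2 difference 0.45, SE 0.17, adjusted p = 0.03394, range over alternatives 0.012 to 0.113). That call was lost without nuclei library 2 or 3 or cell library 1 or 2. Male cells were at 31.0, 32.6 and 35.2 and male nuclei at 37.6, 34.3 and 36.6 (log2 difference -0.04, not called), but within proximal-tubule-like barcodes the fitted difference was negative, at 45.3, 44.1 and 50.1 against 52.1, 53.1 and 52.9 CPM (log2 difference -0.66, SE 0.15, adjusted p = 0.001056, median of all genes 0.77). In female proximal-tubule-like barcodes the fitted difference was positive and did not pass (0.355, adjusted p = 0.06152), and it was called with doublets left out (0.407, adjusted p = 0.03651), with dropped genes left out (0.385, adjusted p = 0.04264) and without nuclei library 1 (0.561, adjusted p = 0.002178). The male class was made up differently: S1-like, S3-like and other tubule barcodes were 19.065%, 20.693% and 13.602% of male cells, and S1-like and S3-like barcodes 23.318% and 32.639% of male nuclei. Ace did not pass the test in the library sums of C57BL/6J cells where it was tested, warm against cold, cold cryopreserved and both methanol-fixed comparisons, and it was dropped in 1 warm cryopreserved library. It did not pass in tubule sums either, but was called there after cold methanol fixation without cold fresh library 3 (-0.702, adjusted p = 0.04401). In fresh cells cold libraries were at 30.8, 22.3 and 13.8 and warm libraries at 21.5, 31.4 and 28.9 (log2 difference 0.48, adjusted p = 0.237), and bulk suspensions were at 239, 189 and 147 CPM cold and 253, 195 and 204 CPM warm (0.16, adjusted p = 0.564).

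Enpep, aminopeptidase A, which removes the first residue of angiotensin II, lies on the minus strand at chr3:129269175-129332720. Podocyte-like barcodes held 2513, 1820 and 1499 CPM of Enpep in cold fresh C57BL/6J libraries (354 barcodes, 67.72% of Enpep UMIs), 1372, 1255 and 1486 in male Balb/c cells (60.71%) and 1664, 1524 and 2004 in female cells (53.24%). The next class was mural-like, at 133 ± 59.4, 138 ± 176 and 211 ± 58.9 (SD, n = 3). The podocyte-like level thus exceeded the next class by far in every cell set, in all 9 libraries.

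Enpep fell with warm dissociation. Libraries were at 115.9, 137.8 and 110.9 CPM cold and 27.9, 33.1 and 33.0 warm, with no overlap, and Enpep fell by 1.80 on the log2 scale (SE 0.13, adjusted p = 7.382e-05, called in all 11 alternatives). Podocyte-like barcodes were nearly lost from the warm libraries, with 5 against 354, so that the class could not be tested. Of the 11 podocyte markers all 7 tested were lower (median -2.68), their sum was 87.1 to 107 CPM against 803 to 1270, and Nphs1 was dropped by the filter in all warm libraries and counted as 0 in that sum. Their part in the Enpep difference was not tested. Within proximal-tubule-like barcodes Enpep was at 42.5, 54.0 and 52.9 cold and 27.8, 35.1 and 35.5 warm, a difference that missed the threshold (-0.53, adjusted p = 0.06107, range over alternatives 0.0239 to 0.211). In bulk suspensions Enpep was at 310, 329 and 286 CPM cold and 275, 238 and 268 CPM warm, and fell by 0.27 (SE 0.07, adjusted p = 0.0411, range over alternatives 0.0174 to 0.176), a call lost without any 1 library other than cold library 3. Akr1b7, Enpep and Mme were the 3 of 7 members called there, where 8.68% of 14102 genes were called. Podocyte markers in bulk fell in 6 of 11 (median -0.40), with sums of 1270 to 1380 CPM warm and 1540 to 1900 CPM cold.

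Enpep was also lower after storage of C57BL/6J cells. It was at 84.0, 62.5 and 88.7 CPM in cold cryopreserved libraries, and fell by 0.82 against cold fresh libraries (SE 0.16, adjusted p = 0.003456), the only member called of 5 tested where 50.7% of 11392 genes were called. In warm cryopreserved libraries it was at 24.4, 28.1 and 23.3 against 27.9, 33.1 and 33.0 CPM in warm fresh ones, ranges that overlapped, and it fell by 0.66 in the fit with TMM scaling (SE 0.15, adjusted p = 0.006444), 1 of 2 members called of 2 tested where 59.8% of 10778 genes were called. Cold methanol-fixed libraries were at 79.0, 84.4 and 63.4, lower than fresh ones (log2 difference -0.53, SE 0.12, adjusted p = 0.01202, range over alternatives 0.00303 to 0.0637), the only member called of 6 tested where 27.9% of 11910 genes were called. That call was lost without cold fresh library 2 and stood with the code in the barcode names as a replicate block (-0.53, adjusted p = 0.00303). Within podocyte-like barcodes methanol-fixed libraries were at 1604, 1435 and 1237 CPM (log2 difference -0.54, SE 0.18, adjusted p = 0.04229, range 0.00514 to 0.146), called in a class where 20.6% of 2613 genes were called, and lost on leaving out 5 of the 6 libraries in turn. Without the block no member was called in the other classes after cold methanol fixation: none of 6 tested in proximal-tubule-like barcodes (22.1% of 9771 genes called), of 2 in mural-like barcodes (13% of 1180) or of 1 in endothelial-like barcodes (24.5% of 3437). With the replicate block Ren1 was called in proximal-tubule-like barcodes (0.95, adjusted p = 0.01184, against 0.1162 without the block), at 4.77, 13.01 and 9.97 CPM from 8 to 41 UMIs after fixation and 1.56, 7.53 and 5.74 CPM from 4 to 24 UMIs in fresh cells. Proximal tubule markers summed to 114 to 249 CPM in cold cryopreserved against 13100 to 16000 in cold fresh libraries, and podocyte markers to 451 to 607 in cold methanol-fixed against 803 to 1270 in cold fresh libraries. Podocyte-like barcodes were 3.552% of cold cryopreserved and 2.987% of cold fresh barcodes, and mural-like ones 3.865% and 1.224%. The part of these cell types in the Enpep differences was not tested. In warm methanol-fixed libraries Enpep was at 20.4, 27.5 and 41.9, and none of the 5 members tested was called where 17.3% of 10826 genes were called. Female cryopreserved cells were at 98.3, 154 and 101 against 87.4, 89.3 and 124 in fresh cells, and Enpep did not pass the test (-0.17, opposite in sign to the means of these levels).

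Enpep was lower in library sums of nuclei in both sexes. Male nuclei were at 54.2, 51.6 and 43.0 CPM against 102, 114 and 154 in cells (log2 difference -1.47, SE 0.17, adjusted p = 8.381e-05), and female 3x500g nuclei at 52.9, 52.8 and 50.2 against 87.4, 89.3 and 124 (-1.38, SE 0.12, adjusted p = 6.921e-06). In the male comparison 3 of 5 members tested were called, 1 higher and 2 lower, where 81.3% of 14027 genes were called and the median of all genes was 0.84. Podocyte-like barcodes were 4.337% of male cells and 0.386% of male nuclei. They were 2.425% of female fresh cells and 0.933% of female 3x500g nuclei, and their part in the Enpep differences was not tested. In podocyte-like barcodes female nuclei were at 736, 781 and 666 against 1664, 1524 and 2004 CPM (-1.40, SE 0.15, adjusted p = 1.026e-07), 1 of 2 members called of 2 tested where 81.5% of 5932 genes were called. Male podocyte-like nuclei were at 907, 766 and 365 against 1372, 1255 and 1486, a difference that missed the threshold (-0.60, adjusted p = 0.0675). Over alternatives it ran from -1.658 to -0.193, and it was called without nuclei library 1 (-1.135, adjusted p = 0.009762), with no filter (-1.658, adjusted p = 4.134e-05) and with RLE scaling (-0.675, adjusted p = 0.03516), in a class whose median of all genes was -1.50 and where 84.7% of 1122 genes were called. Enpep did not pass in male endothelial-like barcodes either (-0.25, adjusted p = 0.5749), where 74.9% of 4788 genes were called. In female endothelial-like barcodes it was higher in nuclei by 0.35 without passing (adjusted p = 0.08639), and it was called with Leiden resolution 1 (0.457, adjusted p = 0.02805) and without nuclei library 2 (0.485, adjusted p = 0.02993). Over proximal-tubule-like barcodes the fitted differences were -0.73 in males (SE 0.18, adjusted p = 0.002158, median of all genes 0.77) and -0.71 in females (SE 0.10, adjusted p = 5.455e-05, median of all genes 0.16). The female CPM there overlapped, at 63.8, 69.6 and 66.1 in nuclei and 62.3, 68.4 and 57.2 in cells, so the female difference was one relative to the scaling of the class sums (range over alternatives -0.801 to -0.604). In these tubule sums 3 of 4 members tested in males and 4 of 5 in females were called, where 80.2% of 12113 and 85.6% of 12617 genes were called.

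**Figure D5:**
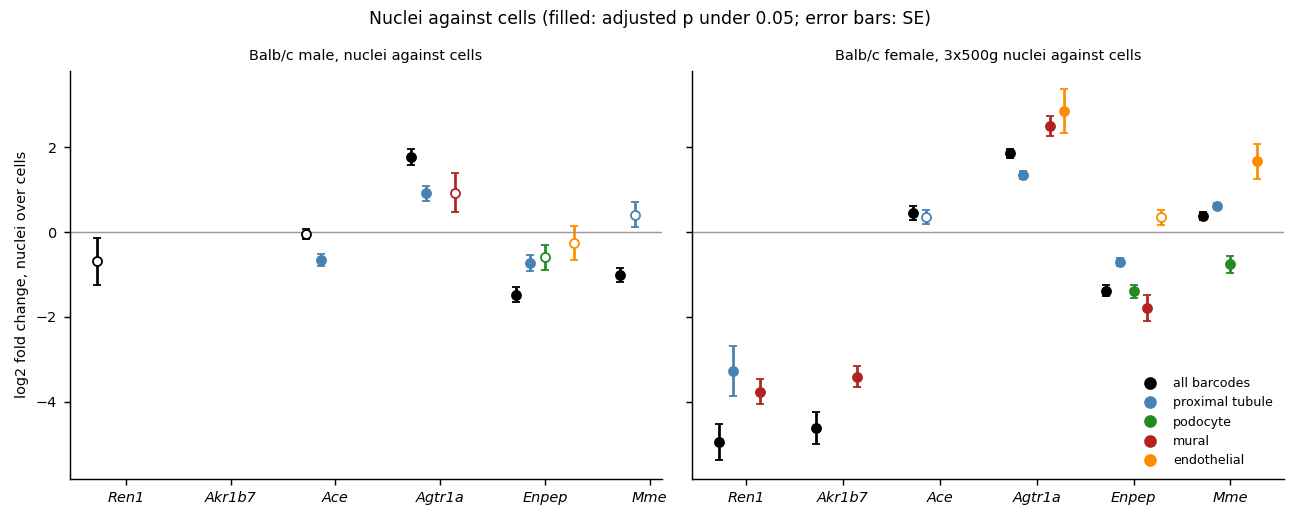
Log2 fold change of nuclei over cells for the 6 members other than Agt, in sums over all barcodes and over 4 classes, for male and female Balb/c kidneys; colours are the sums, error bars are 1 SE, filled points passed the adjusted p of 0.05, and members that could not be tested have no point. Agtr1a lies above 0 in every sum drawn, Enpep lies below 0 in library, tubule and podocyte-like sums of both sexes, and Ren1 and Akr1b7 lie far below 0 in the female sums.

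Mme, neprilysin, which cleaves angiotensin I and many other peptides, lies on the plus strand at chr3:63241537-63386030. Its highest level in cells was in intercalated-like barcodes of the collecting duct, at 409, 370 and 505 CPM in cold fresh C57BL/6J libraries (35.71% of Mme UMIs), 549, 442 and 462 in male Balb/c cells (56.95%) and 538, 538 and 474 in female cells (19.47%). Podocyte-like barcodes came next in C57BL/6J cells, at 195, 186 and 157. In female nuclei S3-like tubule barcodes were highest, at 458, 538 and 572, and carried 48.57% of Mme UMIs, whereas male S3-like nuclei were at 64.2, 61.9 and 33.6.

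Male and female nuclei moved in opposite directions from cells for Mme. Male nuclei were at 49.0, 51.2 and 35.0 CPM against 88.2, 71.5 and 85.9 in cells (log2 difference -1.02, SE 0.17, adjusted p = 0.0006696), with no overlap. Female 3x500g nuclei were at 144, 160 and 157 against 88.8, 88.7 and 82.2 (0.38, SE 0.09, adjusted p = 0.002937), again with no overlap. Intercalated-cell markers summed to 323 to 438 CPM in male nuclei against 1360 to 1850 in male cells, and S3 markers to 1410 to 2070 in female nuclei against 82.8 to 114 in female cells; their part was not tested. Over proximal-tubule-like barcodes Mme was higher in female nuclei, at 172, 185 and 181 against 67.2, 63.9 and 73.4 (0.61, SE 0.08, adjusted p = 2.052e-05). These sums compare different clusters, since S3-like barcodes were 9.868% of the nuclei and no cluster of the cells bore that name. S1-like barcodes alone were at 49.7, 38.5 and 41.1 CPM of Mme in nuclei and 48.6, 33.4 and 37.0 in cells, ranges that overlapped. The male difference over tubule barcodes, 0.41, did not pass (adjusted p = 0.201, range over alternatives 0.0153 to 0.439). In podocyte-like barcodes female nuclei were lower (-0.75, SE 0.20, adjusted p = 0.001882) and in endothelial-like barcodes higher (1.67, SE 0.41, adjusted p = 0.00126), at 19.1, 18.1 and 25.4 against 6.82, 3.22 and 7.37 CPM, the latter from 2 to 4 UMIs per cell library. Of 3 members tested in the endothelial-like class, 2 were called, where 79.3% of 9225 genes were called. Sucrose nuclei were at 118, 114 and 129 and lower than 3x500g nuclei (log2 difference -0.36, SE 0.06, adjusted p = 0.003316), and 1x2000g nuclei at 132, 144 and 130 (-0.20, SE 0.06, adjusted p = 0.03292, range over alternatives 0.0022 to 0.113), the latter lost without 1x2000g library 1 or 3 or 3x500g library 2 or 3.

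In C57BL/6J suspensions Mme differed in sign between bulk and 10x libraries, and the 10x difference did not pass the test. Bulk values were 155, 163 and 118 CPM cold and 197, 180 and 209 CPM warm, and Mme rose by 0.40 (SE 0.10, adjusted p = 0.02395, range over alternatives 1.52e-05 to 0.092), a call lost without warm library 1 or 3. In 10x libraries it was at 32.6, 40.7 and 36.2 CPM cold and 11.7, 25.9 and 23.0 warm, with no overlap (log2 difference -0.66, adjusted p = 0.1001, and 0.04904 without warm library 2). Intercalated-cell markers summed to 647 to 749 CPM warm against 374 to 417 CPM cold in bulk, and to 209 to 335 warm against 529 to 738 CPM cold in 10x libraries. Their part was not tested. Warm cryopreserved libraries were at 75.6, 43.5 and 66.4 and higher than warm fresh ones by 1.21 (SE 0.32, adjusted p = 0.0132), where proximal tubule markers summed to 187 to 328 against 17200 to 20000 CPM. Intercalated-like barcodes were 5.369% of the warm cryopreserved and 0.808% of the warm fresh ones, and the part of either in the Mme difference was not tested. Cold cryopreserved libraries, at 35.8, 34.7 and 32.7, were not called against cold fresh ones (-0.26). With that code as a replicate block, Mme was lower after methanol fixation of cold cells, at 20.1, 30.6 and 16.7 (-0.55, adjusted p = 0.02301), and it missed the threshold without the block (-0.53, adjusted p = 0.0805).

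Intact female kidney held 671, 583 and 648 CPM of Mme against 276, 259 and 221 CPM in the suspension, higher by 1.34 (SE 0.09, adjusted p = 1.023e-05), with no overlap and with the S3 marker sums given above for Ace. Enpep there was at 191, 199 and 193 against 198, 223 and 235 CPM and did not pass the test (-0.16, adjusted p = 0.127). Mme in cold fresh male cells was lower in C57BL/6J than in Balb/c mice (log2 difference -0.97, SE 0.13, adjusted p = 0.003145), at 32.6, 40.7 and 36.2 against 88.2, 71.5 and 85.9 CPM. With Ren1 it made 2 of 5 members called there, and no member was called in its sums over proximal-tubule-like (4 tested, 10.7% of 8892 genes called), podocyte-like (2 tested, 6.21% of 2207) or endothelial-like barcodes (1 tested, 6.3% of 2303). Intercalated-like barcodes were 1.586% of C57BL/6J and 6.555% of male Balb/c cells, and their part in the Mme difference was not tested. Some alternatives did call a member in the class sums. Podocyte-like Enpep (0.583, adjusted p = 0.08111) was called with no filter (0.693, 0.01778), with doublets left out (0.624, 0.0483) and without C57BL/6J library 3 (0.733, 0.04232). Tubule Ace (-0.741, adjusted p = 0.1008) was called without C57BL/6J library 1 (-1.111, 0.00382).

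Agtr1a, the type 1a angiotensin II receptor, lies on the plus strand at chr13:30336441-30382867. In cells it was highest in mural-like barcodes, at 323, 250.5 and 263 CPM in cold fresh C57BL/6J libraries, 104, 619 and 561 in male Balb/c (14 UMIs in all) and 118, 92.5 and 76.5 in female cells. Proximal-tubule-like barcodes were lower but far more numerous, and S1-like barcodes at 24.7 ± 5.58 CPM carried 44.52% of Agtr1a UMIs in C57BL/6J cells. In nuclei fibroblast-like barcodes, a class no cell set held, were at 614, 456 and 556 in males and 454, 628 and 898 in females.

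Agtr1a was higher in nuclei than in cells in both sexes. Male nuclei were at 70.2, 61.3 and 70.5 CPM against 12.2, 17.1 and 24.2 in cells (log2 difference 1.77, SE 0.20, adjusted p = 7.317e-05, median of all genes 0.84). Female 3x500g nuclei were at 86.4, 86.1 and 93.2 against 16.8, 18.9 and 18.1 (1.86, SE 0.10, adjusted p = 3.313e-07). Within proximal-tubule-like barcodes the values were 63.2, 66.7 and 78.4 against 23.0, 23.7 and 34.4 in males (0.92, SE 0.18, adjusted p = 0.0004494, median of all genes 0.77) and 125, 113 and 123 against 26.7, 27.6 and 28.6 in females (1.34, SE 0.09, adjusted p = 1.784e-07). In mural-like barcodes female nuclei were at 721, 844 and 871 against 118, 92.5 and 76.5 (2.50, SE 0.23, adjusted p = 1.493e-09). Cells and nuclei were clustered apart, and the mural-like class was 2 clusters in female cells, with 246 to 639 CPM of Agtr1a in one and 0 to 94.5 in the other, and 1 cluster in female nuclei, so the class level also follows the share of each cluster. Male mural-like nuclei were at 259.9, 231 and 164 against 104, 619 and 561 CPM from 14 UMIs. The fitted difference after TMM scaling had the opposite sign to the means of these levels. It missed the threshold (0.93, adjusted p = 0.053) and was below the median of all genes in the class, 1.86, where 79.8% of 1046 genes were called. It ranged from -0.308 to 1.504 over alternatives, and RLE scaling moved the class median by 0.53 and called it (1.46, adjusted p = 0.002113), as did DESeq2 (adjusted p = 0.02344). In endothelial-like barcodes the female difference was 2.85 (SE 0.52, adjusted p = 8.406e-05), at 13.8, 15.4 and 15.1 CPM against 1.71, 1.61 and 1.84, where each cell library had 1 UMI. The 3 nuclei preparations did not separate for Agtr1a, at 87.9, 82.5 and 90.3 in 1x2000g and 79.1, 87.1 and 75.4 in sucrose nuclei.

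Dissociation and tissue state moved Agtr1a little. In fresh C57BL/6J libraries it was at 20.4, 21.1 and 16.2 cold and 28.2, 22.4 and 23.5 warm, with no overlap, and rose by 0.49 (SE 0.14, adjusted p = 0.04165, range over alternatives 0.0383 to 0.15), a call lost in DESeq2 and without any 1 library other than cold library 1. Bulk suspensions were at 67.8, 65.5 and 61.8 CPM cold and 67.2, 59.6 and 65.6 CPM warm (-0.05, adjusted p = 0.79). Intact female kidney exceeded its suspension by 0.24 (SE 0.05, adjusted p = 0.01347, range over alternatives 0.00802 to 0.0542), at 58.7, 60.0 and 57.8 against 48.0, 52.5 and 50.6 CPM, lost without intact library 2 (0.0513) or suspension library 1 (0.0542). Intact male kidney was at 48.7, 27.5 and 41.9 CPM. After cryopreservation of cold cells Agtr1a was at 24.1, 9.42 and 6.92, not called (-0.74, adjusted p = 0.127), but called without cryopreserved library 1 (-1.369, adjusted p = 0.004383) and with dropped genes left out of the fit (-0.769, adjusted p = 0.03721).

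Levels of the 7 genes were ordered in bulk after division by exon length. In C57BL/6J cold suspensions the order in CPM per kb was Enpep (65.5 ± 4.65, SD, n = 3), Ace (36.3 ± 8.75), Agtr1a (23.3 ± 1.09), Ren1 (19.3 ± 5.07), Mme (12.6 ± 2.07), Agt (7.72 ± 0.64) and Akr1b7 (2.35 ± 0.56), and only Agtr1a and Ren1 overlapped among neighbours. In intact female kidney the order was Ace (65.7 ± 8.86), Mme (54.9 ± 3.94), Ren1 (52.8 ± 20.04), Enpep (41.3 ± 0.88), Agtr1a (21.1 ± 0.40), Akr1b7 (1.77 ± 0.29) and Agt (0.938 ± 0.23), and Ren1 overlapped Ace, Mme and Enpep. The kits differed between these sets.

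The 20 other genes of the pathway were counted in the same fits. In C57BL/6J bulk suspensions 13 were tested and 2 called in warm against cold, where 8.68% of all genes were called: Klk1, tissue kallikrein, was higher (0.56, SE 0.10, adjusted p = 0.003575) and Ctsa, a lysosomal carboxypeptidase that can act on angiotensin I, lower (-0.33, SE 0.09, adjusted p = 0.03351). Klk1 was at 854, 918 and 795 CPM cold and 1166, 1207 and 1488 CPM warm, and it belongs to a family of close copies whose reads the counting could split. In intact female kidney against suspension 12 were tested and 4 called, where 20% of all genes were called, with the aminopeptidases Lnpep (0.63, adjusted p = 0.000227) and Anpep (0.24, adjusted p = 0.02286) higher and Klk1 (-0.65, adjusted p = 0.0003579) and Ctsa (-0.33, adjusted p = 0.00454) lower. In 10x library sums the counts tested, higher and lower were 12, 1 and 1 for warm against cold cells (14.9% of all genes called), 8, 3 and 3 for male nuclei (81.3%), 12, 4 and 5 for female 3x500g nuclei (84.8%) and 11, 3 and 4 for female cryopreserved cells (58.0%).

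The genes whose profile over cell classes was most like each member were taken from 33 class means of the cold fresh male cells, over 7706 genes, as a description. For Ren1 they were Akr1b7 (Pearson r = 0.927), Gucy1b3 (0.903) and Rergl (0.901), and for Akr1b7 Rergl (0.962), Cox4i2 (0.961) and Des (0.961). For Agtr1a they were Map3k7cl (0.847), Rarres2 (0.816) and Susd2 (0.808), for Enpep Htra1 (0.845), P4ha2 (0.825) and Hoxa10 (0.817), for Mme Plagl1 (0.823), Shroom2 (0.805) and Sh3bgrl2 (0.798), and for Ace Msrb1 (0.856), Sap30 (0.691) and Gpx1 (0.669). The class means share libraries and depth, and Ren1 and Akr1b7 had 1 class of high level in each set.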

How the data were processed

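Whole kidneys were profiled by 10x RNA-seq of cells and nuclei and by bulk RNA-seq, 3 samples per group. The 10x tables are UMI counts per gene and barcode, deposited after the authors ran Cell Ranger 2.1.1, counted exonic reads in cell libraries but added intronic ones in nuclei libraries, filtered barcodes, kept genes seen in at least 10 cells and merged libraries. The bulk tables are read counts per gene deposited by the authors after trimming with Trim Galore, alignment with STAR 2.6.1a and counting with featureCounts. Barcode filters differ between sets and set depth, and the filter on cells per gene removes rare transcripts such as Ren1 from some libraries. Ren1 was dropped in libraries of 782 to 2412 barcodes and listed in others of 993 and 1228.

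The members and lists were chosen with earlier results of these data known. Groups came from the sample labels. UMIs were summed per library, and per library and class where at least 2 libraries a group held 10 barcodes, and compared with edgeR 4.0.16 (TMM, filterByExpr, quasi-likelihood test, Benjamini-Hochberg over all genes tested, adjusted p of 0.05, R 4.3.3). This differs from a test over cells. Barcodes were clustered without the members (2000 variable genes, 30 components, 20 neighbours, Leiden resolution 2, leidenalg 0.10.2, scikit-learn 1.9.0) and named from 186 markers of 21 classes, at least 3 markers a name. The barcodes of highest Scrublet score, 0.8% per 1000 barcodes of a library, were marked as doublets and kept, with their removal as an alternative. Shares of renin-rich barcodes were compared by an exact permutation test (scipy 1.17.1). Named genes were the members, pathway genes called in bulk and the 3 genes nearest to each member. The edgeR fit, and no other step, was tested on simulated counts. In simulated mural-like sums of warm against cold cells it recovered 45.3% of 2-fold and 97.6% of 4-fold changes. That simulation held 3 warm and 3 cold libraries and 693 genes, whereas the fit reported above held 2 warm and 3 cold libraries and 1163 genes. The recovered shares therefore do not give the power of the reported fit. Alternatives were DESeq2 1.42.0, RLE scaling, no filter, other thresholds, each library left out and, added after the data were seen, dropped genes left out or counted and a replicate block.

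A code in the barcode names of C57BL/6J libraries may mark a mouse. Stored cells were aliquots of the fresh suspensions, but the main tests of stored against fresh cells took all libraries as independent. Libraries with 1 code deviated together from their group means for methanol-fixed and fresh cells (correlations 0.234 to 0.386 cold and 0.197 to 0.36 warm). For cold cryopreserved and fresh cells these correlations were 0.133, 0.022 and 0.14, and over the comparisons other than methanol fixation they ran from -0.086 to 0.19. No main test used the code, those of methanol-fixed cells included, and the replicate block was an added alternative. Libraries hold 983522 to 35170947 UMIs or 2326998 to 31093949 bulk reads.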

Additional observations from a re-analysis of the deposited data

Results flagged for a closer look

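Nuclei and cells differed by more in Ren1 in females than in males. The log2 difference of nuclei against cells was -4.96 in females and -0.68 in males, and the difference between them, female minus male, was -4.42 (SE 0.84, adjusted p = 0.000792 over 13430 genes, edgeR's quasi-likelihood test with an interaction term). The male values rested on 3 to 14 UMIs per cell library. Mme differed in the same test by 1.28 (SE 0.19, adjusted p = 0.000133): all 3 male nuclei libraries were below the male cells and all 3 female ones above the female cells. Sex changed together with age, chemistry and batch in both, and these cannot be told apart.

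The change of Mme with cryopreservation differed between dissociations of C57BL/6J kidney. It was 1.21 in warm and -0.26 in cold cells, and the difference, warm minus cold, was 1.45 (SE 0.37, adjusted p = 0.0408 over 11749 genes). That test took fresh and stored aliquots of a suspension as independent libraries. The sign of the cold change depended on the scaling: the cold groups overlapped in CPM of nuclear-encoded genes, while all 3 cryopreserved libraries lay above all 3 fresh ones when scaled to all UMIs, mitochondrial ones included. No outlier test was run, since groups held 3 libraries.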

How the results depend on the processing

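Over 120 results for single genes and 1339 alternatives, 1241 kept their side of the threshold, 64 lost it, 34 gained it and 0 called values reversed, while 39 values changed sign with neither value called. Of 247 alternatives for 21 counts or shares, 186 stayed, 57 moved and 4 reversed. A count stayed if it lay within 1.5 times the main count. A share stayed if its difference kept its sign and its side of p = 0.05 in the exact permutation test. With 3 against 3 libraries that p cannot fall below 0.1, so for shares only a change of sign could register, whatever the size of the shift. In bulk, a log2 fold change of at least 2 left 0 members in C57BL/6J (main count 3) and 1 in females (5). For 4 classes of warm against cold cells (1) DESeq2 gave 0, where it returned no adjusted p for Agt in the tubule class, the main call. No filter, the replicate block and dropped members counted gave 2 each. Cold cryopreserved cells (1) gave 2 in DESeq2, 3 with dropped genes left out and 2 with dropped members counted, and warm ones (2) gave 4 with dropped members counted. Methanol-fixed cold cells (1) gave 2 with dropped genes left out and 2 with the replicate block, which also gave 2 in classes (1). Male nuclei in 4 classes (3) gave 5 with RLE and 8 with no filter. C57BL/6J against Balb/c in classes (1) gave 2 with no filter, 2 with doublets left out and 2 with dropped members counted. The male renin-rich difference (-0.0025) became 0.0039 at 10 UMIs and 0.0088 after thinning to 500 UMIs. The cause was not tested.

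Leaving out each library in turn gave 0 to 2 members in C57BL/6J bulk, 3 to 5 in female bulk, 2 to 3 in warm against cold libraries and 0 to 2 in their classes, 1 to 2 and 2 to 3 after cold and warm cryopreservation, 0 to 2 after cold methanol fixation in libraries and in classes, 0 in warm ones, and 1 to 2 in female cryopreserved cells. Nuclei gave 3 and 3 to 6 in males, 5 to 6 and 11 to 12 in females (main count 12 in classes), 0 to 1 for 1x2000g (main count 2) and 1 to 2 for sucrose. C57BL/6J against Balb/c gave 1 to 3 and 1 to 2. Renin-rich differences ran from -0.1884 to -0.1228 in C57BL/6J, -0.0079 to 0.0082 in males and -0.3375 to -0.2396 in females.

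For warm against cold and cryopreserved cells same-code libraries shared a code without deviating together in every pair (correlations -0.086 to 0.190), and there the replicate block called Mme (-0.719, adjusted p = 0.04792) and Enpep in the tubule class (-0.538, adjusted p = 0.04232) in warm against cold cells. Balb/c and bulk libraries got no replicate block, because their columns carry no number shared between groups. RLE scaling moved the median of all genes by 0.53 in mural-like and 0.23 in endothelial-like male nuclei. Ren1 in male Balb/c cells rested on 3 to 14 UMIs per library, and class levels below about 10 UMIs also rest on few molecules. Thinned to 500 UMIs, with renin-rich set at 2 Ren1 UMIs, cold fresh C57BL/6J libraries had shares of 0.1488%, 0.1529% and 0.2708%. Male Balb/c cell libraries had 0.0% each, of 1363, 2110 and 549 barcodes. The part of depth was not tested.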

Other observations

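Clusters within a class differed in member levels. These pairs of clusters were chosen after their values were seen and are described with no test. Among intercalated-like barcodes, clusters led by Slc4a1 and Aqp6, genes of acid-secreting type A cells, held more Mme than clusters led by Slc26a4, the anion exchanger of type B cells, in 10 of 10 C57BL/6J cell libraries (354 to 1036 against 0 to 134 CPM). The same order held in 3 of 3 male Balb/c cell libraries (425 to 983 against 112 to 203), 3 of 3 male nuclei libraries (311 to 527 against 26.3 to 47.6), 6 of 6 female cell libraries (758 to 1251 against 34.8 to 135) and 9 of 9 female nuclei libraries (837 to 1106 against 32.6 to 92.4).

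Among mural-like barcodes of female cells, a cluster led by Ndufa4l2 and Notch3 held more Agtr1a than a cluster led by Acta2 and Myh11 in 6 of 6 libraries (246 to 639 against 0 to 94.5 CPM), while Ren1 was higher in the first in 3 of 6. Among endothelial-like barcodes, clusters led by Esm1 and Plvap held more Enpep than clusters led by Ehd3, a gene of glomerular capillaries, in 6 of 7 C57BL/6J and 6 of 6 female cell libraries. Ace was higher in an unnamed cluster led by Mgp and Fbln5 than in the Esm1 and Plvap clusters in 11 of 14 C57BL/6J libraries (0 to 86.7 against 0 to 11.9) and 6 of 6 female ones (33.1 to 91.3 against 0 to 2.69).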
